A study of Mus musculus with 24 samples.

Results

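Nr1d1, Nr1d2 and Rora encode REV-ERB alpha, REV-ERB beta and ROR alpha, the nuclear receptors that meet at the same DNA elements in the circadian clock. The genes were chosen by symbol, and all 3 of the 3 were found among the 56748 gene identifiers of the series and passed the filter on low values. The samples were mouse kidneys labelled by sex and by period. Females gave 6 active and 6 inactive libraries, and males gave 6 active and 6 inactive libraries. Tissue was taken mid-way through the active or the inactive period, and poly A RNA was sequenced from 100 ng of total RNA per library. The labels name no agent and no allele for any group, and state neither the strain, the ages, the clock times nor the number of animals behind the libraries. The p-values therefore measure the spread between these libraries, which may be partly technical. A normalized count below is the number of reads of a gene divided by a size factor of its library.

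The REV-ERB proteins are heme-binding repressors that lack the helix through which most nuclear receptors recruit coactivators. They bind an AGGTCA core preceded by an AT-rich stretch, recruit the NCOR and HDAC3 corepressor, and keep Bmal1 (Arntl) and Npas2 low for part of the day. ROR alpha binds the same element as an activator, so the balance of repressor and activator sets the level of the shared targets. BMAL1 and its partner CLOCK in turn drive the Rev-erb genes through E-boxes, which closes the secondary loop of the clock. In mouse kidney, as in liver, the Rev-erb RNAs are known to peak in the inactive, light part of the day.

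The stretch before the annotated start of the 2 Rev-erb genes is shown because these genes moved together, with matches to an E-box-like element (AACGTG) or to the AGGTCA core in capitals. Both come from RefSeq on the build GRCm38.p6, written 5′ to 3′ on the strand of the gene, at chr11:98775378-98775627 and chr14:18239107-18239356, minus strand in both.
Nr1d1: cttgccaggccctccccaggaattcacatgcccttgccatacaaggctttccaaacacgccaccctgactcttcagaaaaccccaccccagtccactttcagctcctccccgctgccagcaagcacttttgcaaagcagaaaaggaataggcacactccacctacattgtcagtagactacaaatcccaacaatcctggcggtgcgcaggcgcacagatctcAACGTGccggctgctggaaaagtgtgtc
Nr1d2: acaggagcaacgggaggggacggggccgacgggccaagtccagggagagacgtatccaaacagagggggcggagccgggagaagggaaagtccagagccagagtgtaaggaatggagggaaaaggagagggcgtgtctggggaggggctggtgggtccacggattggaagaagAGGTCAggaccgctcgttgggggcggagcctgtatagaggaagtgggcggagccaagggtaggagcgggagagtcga

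The Nr1d1 match (AACGTG) lay at bases -28 to -23 from the start, and the Nr1d2 match at bases -77 to -72. Windows of 300 bases, from 250 before to 50 after each start, were searched on both strands for the E-box CACGTG, the E-box-like element AACGTG, the core AGGTCA and the D-box TTATGTAA. Of all 32851 such mouse windows, 7.15% held the E-box, 4.68% the E-box-like element, 16.3% the core and 0.938% the D-box. The single Rora window held none of the 4. Matches of these lengths are letters in a window and not measured sites.

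Genes that the Rev-erb and ROR proteins share as targets were searched in the same way, over 8 windows of 5 genes. Of these windows 3 held an AGGTCA core, 1 each in Arntl, Clock and Nfil3, beside the 16.3% of all windows. The stretches around these cores are shown because the RNA of each gene moved opposite to Nr1d1 and Nr1d2. Those in Clock, on chromosome 5, and in Nfil3, on chromosome 13, read TGACCT because the core is on the other strand. In the same build they lie at chr7:113207530-113207559 (plus strand), chr5:76303604-76303633 and chr13:52981034-52981063 (minus strand).
Arntl: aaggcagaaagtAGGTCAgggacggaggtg
Clock: agctttggcctcTGACCTgacagatgacag
Nfil3: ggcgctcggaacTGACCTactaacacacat

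The Arntl core, on chromosome 7, sits at bases 32 to 37 after 1 of its 2 annotated starts. The Cry1 window held the E-box and the E-box-like element, and the Npas2 window held none of the 4.

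The libraries held 31.04 to 39.3 M recovered reads. All of the kidney segment lists fixed for the check were detected in every group, while 2 of 3 or 3 of 3 adrenal cortex markers were at 0 in each group and the list never summed to more than 4.83 normalized counts. Fat markers varied widely, summing to 40.9 to 1250 in active and 63.5 to 889 in inactive females. In males they summed to 26.5 to 539 in the active and 130 to 420 in the inactive period. Skeletal muscle markers reached 183 in inactive females, with a median of 1.65. Of 17333 tested genes, a period call was made for 15% in females and 15.4% in males, and calls were made for 2.71% in the difference between these changes, 60.6% for sex in the active period and 55.7% for sex in the inactive period. A gene is called at an adjusted p under 0.05 by limma with Benjamini-Hochberg adjustment over all tested genes. Higher calls made 7.97% and lower calls 6.98% of tested genes in active females, and 8.43% and 6.95% in active males. In males against females, 30.1% were higher and 30.5% lower in the active period, and 27.9% and 27.8% in the inactive period. These balances move with the scaling. With equal totals the calls were 1019 higher and 1570 lower in active females (1382 and 1210 with the authors' scaling), 1131 and 1459 in active males (1461 and 1204), 2627 and 8850 for sex in the active period (5219 and 5290) and 2047 and 9083 for sex in the inactive period (4844 and 4818). Scaled by the upper quartile, the calls were 5903 and 3792 for sex in the inactive period and 162 and 348 for the difference between the period changes (245 and 225).

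Nr1d1 (ENSMUSG00000020889, chromosome 11) was lower in the active period in both sexes, by 23.97-fold in females and 12.4-fold in males. In active females it lay at 62.2 to 118 normalized counts with a median of 100.48, against 1979.6 to 2492.5 with a median of 2278 in inactive females. In active males it lay at 85.2 to 187 with a median of 131, against 1159.9 to 1923 with a median of 1713 in inactive males. Every active library of either sex was below every inactive library. The means were 94.9 ± 23.4 in active females and 2242 ± 175 in inactive females, and 133 ± 38.4 in active males and 1623 ± 295 in inactive males (SD, n = 6 each).

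On the log2(normalized count + 1) scale the period change of Nr1d1 was -4.58 ± 0.17 (SE) in females (95% interval -4.94 to -4.22, adjusted p = 3.14e-15 by limma). In males it was -3.63 ± 0.17 (-3.99 to -3.27, adjusted p = 9.30e-13). Ranked by the size of its change among the 17333 tested genes, Nr1d1 was number 2 in females, after Dbp, and number 1 in males. Period accounted for 96.7% of its sum of squares over the 24 libraries on this scale, and the spread within groups for 1.99%.

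Nr1d2 (ENSMUSG00000021775, chromosome 14) was also lower in the active period, by less than Nr1d1. Active females lay at 1216 to 1916 normalized counts with a median of 1390.2, against 6921 to 9810.2 with a median of 8201 in inactive females. Active males lay at 2024 to 2980.0 with a median of 2286, against 6316 to 7687 with a median of 7007 in inactive males. The active and inactive libraries did not overlap in either sex, as for 7.83% of tested genes in females and 4.29% in males. In order of mean from low to high came active females (1492 ± 272), active males (2411 ± 375), inactive males (6967 ± 526) and inactive females (8252 ± 1101). The 2 inactive groups overlapped, and the 2 active groups did not.

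Nr1d2 fell by 2.47 ± 0.11 on the log2 scale in active females (5.56-fold, adjusted p = 1.09e-13 by limma) and by 1.54 ± 0.11 in active males (2.91-fold, adjusted p = 2.06e-09). It was number 19 by size of change in females and number 66 in males. Period accounted for 90.9% of its sum of squares, and the interaction of period with sex for 4.91%.

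Rora (ENSMUSG00000032238, chromosome 9), the activator at the shared element, did not pass the test for the period in either sex. It lay at 1915 to 2494 normalized counts with a median of 2124 in active females, against 1857 to 2342 with a median of 2142 in inactive females. It lay at 2285 to 2479 with a median of 2405 in active males, against 2219 to 2770.3 with a median of 2449.7 in inactive males. All 4 groups overlapped one another. The log2 fold in females was 0.03 ± 0.06 with a 95% interval of -0.10 to 0.16, adjusted p = 0.843 by limma. In males it was -0.04 ± 0.06 with an interval of -0.17 to 0.09, adjusted p = 0.744. Period accounted for 0.0306% of its sum of squares. Of the 3 genes, 2 were thus lower, 0 higher and 1 not called in each sex, where 6.98% of tested genes were lower in females and 6.95% in males.

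**Figure D1:**
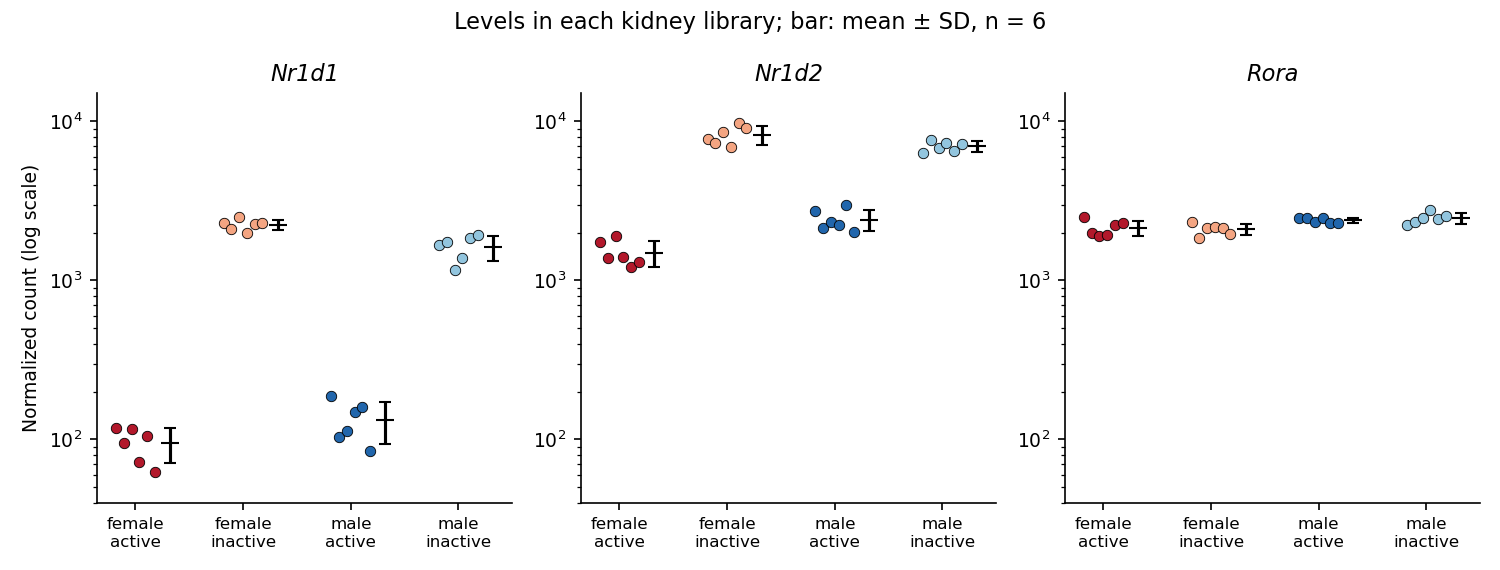
Normalized counts (log axis) of Nr1d1, Nr1d2 and Rora in the 6 libraries of each group, with the mean ± SD beside the points. Active libraries of Nr1d1 and Nr1d2 sit below all inactive ones in both sexes, while the 4 groups of Rora overlap at 1857 to 2770.3.

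Levels of different genes can be set side by side per kb of exon, taking all annotated exons of each gene (3.077 kb for Nr1d1, 5.409 for Nr1d2 and 13.071 for Rora). Nr1d2 had the highest level per kb of the 3 in each of the 24 libraries. In the active period it was followed by Rora and then Nr1d1, with means per kb of 276 ± 50.3, 165 ± 17.8 and 30.9 ± 7.59 in females and 446 ± 69.4, 183 ± 7.06 and 43.1 ± 12.5 in males. In the inactive period Nr1d1 stood above Rora in all 12 libraries, at 729 ± 56.8 against 161 ± 13.0 in females and 528 ± 95.7 against 188 ± 14.6 in males. The ratio of Nr1d2 to Nr1d1 per kb had a median of 8.85 in active females (6.56 to 11.9) against 1.98 in inactive females (1.95 to 2.46), and of 11.2 in active males (8.39 to 13.5) against 2.32 in inactive males (1.99 to 3.33). The lengths sum the exons of all annotated transcripts of a gene. Undivided by length, the mean of Rora was above that of Nr1d2 in active females (2150 against 1492 normalized counts). In inactive males it was above that of Nr1d1 (2460 against 1623), so these orders depend on the lengths.

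Ratios taken within a library do not depend on its scaling, apart from the pseudocount of 1, and 12 differences of such ratios were tested by exact two-sided permutation with joint Benjamini-Hochberg adjustment. The smallest p that 6 against 6 libraries allow is 0.00216. The log2 ratio of Nr1d1 to Nr1d2 averaged -3.98 ± 0.31 in active females and -1.87 ± 0.14 in inactive females, a difference of -2.11 (exact p = 0.00216, adjusted p = 0.00371). It averaged -4.21 ± 0.27 in active males and -2.12 ± 0.30 in inactive males, a difference of -2.09 with the same p-values. Nr1d1 thus fell more than Nr1d2 in both sexes, with no overlap between periods.

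Both Rev-erb genes were lower relative to Rora in the active period. The log2 ratio of Nr1d1 to Rora averaged -4.52 ± 0.40 in active females against 0.09 ± 0.15 in inactive females, and -4.21 ± 0.40 in active males against -0.62 ± 0.33 in inactive males. For Nr1d2 to Rora it averaged -0.54 ± 0.31 in active females against 1.96 ± 0.23 in inactive females, and -0.0026 ± 0.23 in active males against 1.502 ± 0.12 in inactive males. These 4 period differences had an exact permutation p = 0.00216 and adjusted p = 0.00371 each, and no overlap.

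Of the 6 differences of these ratios between the sexes 3 passed, by the same exact permutation tests. Nr1d1 to Rora was lower in inactive males than in inactive females by a log2 difference of -0.71 (adjusted p = 0.00371), with no overlap, and its difference of 0.31 in the active period did not pass (adjusted p = 0.214). Nr1d2 to Rora was higher in active males by 0.54 (adjusted p = 0.0144) and lower in inactive males by -0.46 (adjusted p = 0.00649), with overlap in both periods. Nr1d1 to Nr1d2 did not pass in the active (-0.23, adjusted p = 0.214) or inactive period (-0.25, adjusted p = 0.132), though without inactive male library 35 the inactive difference passed (-0.31, adjusted p = 0.0494).

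**Figure D2:**
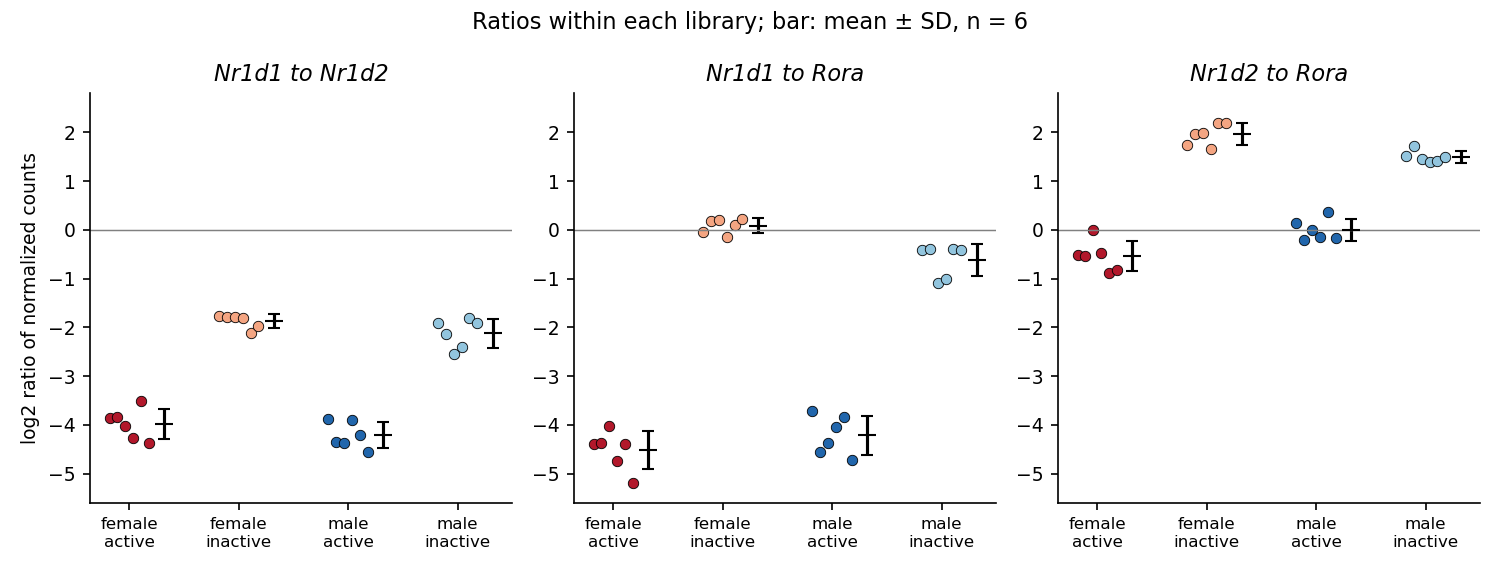
Log2 ratios of normalized counts within each library for the 3 gene pairs, with mean ± SD beside the 6 points of each group. The ratio of Nr1d1 to Nr1d2 is lower in the active period by a log2 difference of -2.11 in females and -2.09 in males.

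The period change of both Rev-erb genes was smaller in males than in females. The male change minus the female change was 0.95 ± 0.25 for Nr1d1 (95% interval 0.44 to 1.46, adjusted p = 0.0379) and 0.93 ± 0.15 for Nr1d2 (0.61 to 1.25, adjusted p = 0.00384), both by limma. For Rora it was -0.06 ± 0.09 (-0.25 to 0.12, adjusted p = 0.747). The Nr1d1 call is lost when any 1 of 10 libraries is left out (active female 28 or 30, inactive female 32, 33, 35 or 36, active male 28 or 29, inactive male 33 or 34), with values of 0.84 to 0.97 and adjusted p of 0.0510 to 0.0736. The Nr1d2 call held without any 1 of the 24 libraries. The ratio of Nr1d1 to Nr1d2 did not pass a test for a different change in males than in females (difference 0.018, exact permutation p = 0.940, a test chosen after seeing the data, with sex permuted within each period). By the same test the changes of Nr1d1 to Rora and Nr1d2 to Rora differed between the sexes by 1.01 (adjusted p = 0.00261 over 3 exact tests) and 0.997 (adjusted p = 1.62e-04).

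Within the active period Nr1d2 was 1.62-fold higher in males (log2 difference 0.70 ± 0.11, adjusted p = 7.17e-06 by limma), and the male and female libraries did not overlap. Nr1d1 was 1.38-fold higher in active males (0.47 ± 0.17, adjusted p = 0.0244), with overlapping libraries. Rora was 1.12-fold higher in active males (0.16 ± 0.06, adjusted p = 0.0305). All 3 genes were thus called higher in active males, where 30.1% of tested genes were, and 1 of 3 had no overlap, as for 36.3% of tested genes. With equal totals only Nr1d2 kept that call (0.42, adjusted p = 0.00438), while Nr1d1 had 0.19 (adjusted p = 0.366) and Rora -0.11 (adjusted p = 0.108). The Nr1d1 call is lost without active female library 28 or 30 or active male library 25, 28 or 29 (0.35 to 0.42, adjusted p = 0.0547 to 0.0734), and the Rora call without active female 26, 27 or 28 or active male 25, 26 or 28 (0.13 to 0.15, adjusted p = 0.0539 to 0.0916).

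Within the inactive period Nr1d1 was 1.40-fold lower in males (log2 difference -0.48 ± 0.17, adjusted p = 0.0221 by limma), and the sexes did not overlap, as for 32.3% of tested genes. That call is lost without inactive male library 33 (-0.39, adjusted p = 0.0616). Nr1d2 did not pass (-0.24 ± 0.11, adjusted p = 0.0696), but passed without active female library 27 (-0.24, adjusted p = 0.0418) or inactive female library 34 (-0.29, adjusted p = 0.0343). Rora was 1.17-fold higher in inactive males (0.22 ± 0.06, adjusted p = 0.00364). With libraries rescaled to equal totals, which moves the median sex difference of all genes to -0.32 in each period, the sex differences of Rora turned negative, at -0.11 in the active and -0.056 in the inactive period, and neither passed. Nr1d2 in inactive males passed with equal totals (-0.52, adjusted p = 8.69e-04), and Nr1d1 in inactive males did not pass under upper quartile scaling (-0.40, adjusted p = 0.0523).

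**Figure D3:**
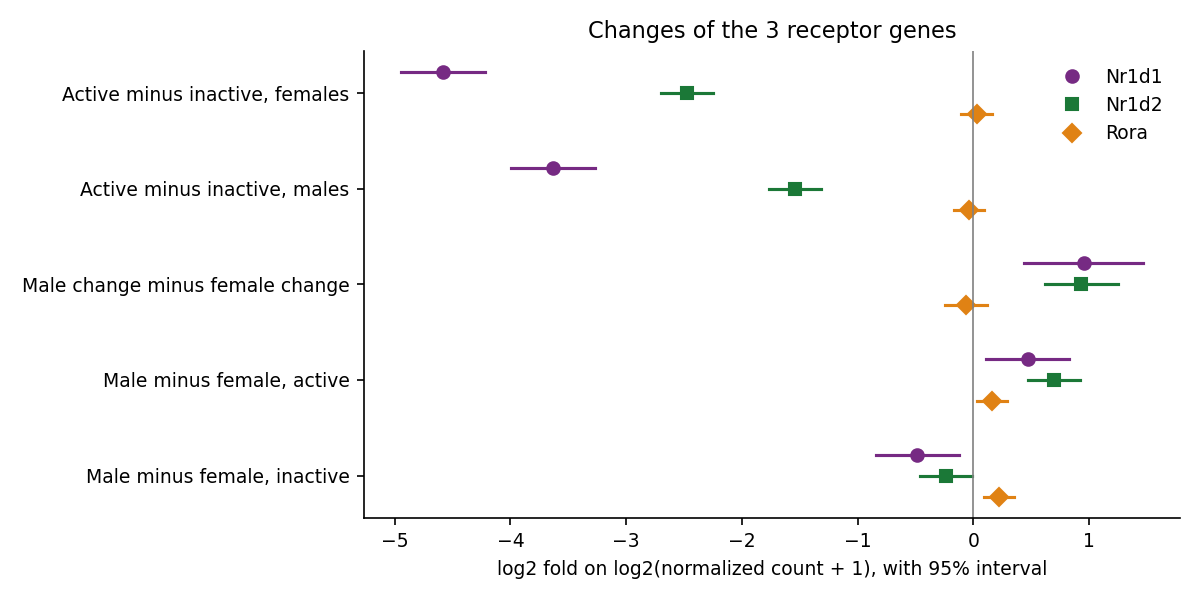
Log2 folds of Nr1d1, Nr1d2 and Rora with 95% intervals from limma for 5 comparisons of the 4 groups. Both Rev-erb genes lie far left of 0 for the period, at -4.58 and -2.47 in females and -3.63 and -1.54 in males, while no fold of Rora exceeds 0.22.

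Segment and cell type markers differed between the sexes alongside these values. The summed podocyte markers spanned 7315 to 8988 normalized counts in males against 12477 to 15144 in females, and the endothelial markers 2888 to 4532 against 4722 to 6802. The distal convoluted tubule markers spanned 35732 to 42961 in males against 53929 to 68755 in females. Of these, Slc12a3 was called lower in males (log2 difference -0.75 in the active and -0.70 in the inactive period, by limma). Pvalb was not called (-0.17, adjusted p = 0.230, and -0.21, adjusted p = 0.139). The proximal tubule markers spanned 208744 to 246533 in males against 145144 to 195244 in females, but the 4 genes were split. By limma Slc34a1 (log2 difference 0.83 in the active and 0.47 in the inactive period) and Slc22a6 (2.21 and 1.70) were called higher in males. Lrp2 (-0.29 and -0.23) and Slc5a2 (-0.18 and -0.32) were called lower. These sums and calls use the authors' scaling. Between the periods the thick ascending limb markers spanned 89656 to 104858 in active females and 68662 to 90844.5 in inactive females, with overlap. Of these markers Umod was called higher in active females (0.44, adjusted p = 0.00988 by limma) and Slc12a1 was not called (0.14, adjusted p = 0.112). The hemoglobin genes spanned 4933 to 6334 in active males and 2066 to 4697 in inactive males. Neither was called in males by limma (Hbb-bs 0.69, adjusted p = 0.190, and Hba-a1 0.79, adjusted p = 0.151). The part of cell composition in the results was not tested. In bulk tissue fewer cells of a type and less RNA per cell cannot be told apart.

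Variation among libraries of one group was compared between the receptor genes and with Arntl, inside each group of 6 libraries. Nr1d2 and Arntl, which encodes the activator BMAL1, ran opposite to each other among active females. Pearson's r was -0.95 (exact permutation p = 0.00139, adjusted p = 0.0333 over 24 correlations) and Spearman's rho was -1 (exact p = 0.00278). It was -0.92 without the 2 libraries farthest from the median of Nr1d2. In the other groups r was -0.83 in inactive females (adjusted exact p = 0.300), -0.83 in active males (0.183) and -0.64 in inactive males (0.661), and none of these passed. Without the 2 farthest libraries those values became -0.94, -0.27 and 0.039, each over few points and a narrower range of Nr1d2. Nr1d1 against Arntl gave r of -0.48 in active and -0.53 in inactive females, and of -0.43 in active and -0.055 in inactive males. For Rora against Arntl r was 0.41 in active and 0.25 in inactive females, and 0.45 in active and 0.051 in inactive males. None of these 8 passed (adjusted exact permutation p of 0.767 to 0.983). Of the 24 correlations 1 passed, and 3 had an unadjusted p under 0.05. The exact permutation p of 0.00139 is the smallest that 6 libraries allow, so a lone correlation among 24 could pass only at that limit. The correlations that did not pass therefore do not show that a relation is absent.

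Between Nr1d1 and Nr1d2, r was 0.58 for active females (adjusted exact permutation p = 0.676) and 0.70 for inactive females (0.547). It was 0.83 for active males (0.300) and 0.028 for inactive males (0.983), so none passed. Rora against either Rev-erb gene gave r between -0.30 and 0.45, and none of these 8 passed. These values moved widely when the 2 libraries farthest from the median of the Rev-erb gene were left out, which leaves few points. Without the 2 farthest, the r of Nr1d1 and Rora in inactive males was 0.998 in place of -0.30, and that of Nr1d2 and Rora in active females was -0.84 in place of -0.14.

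**Figure D4:**
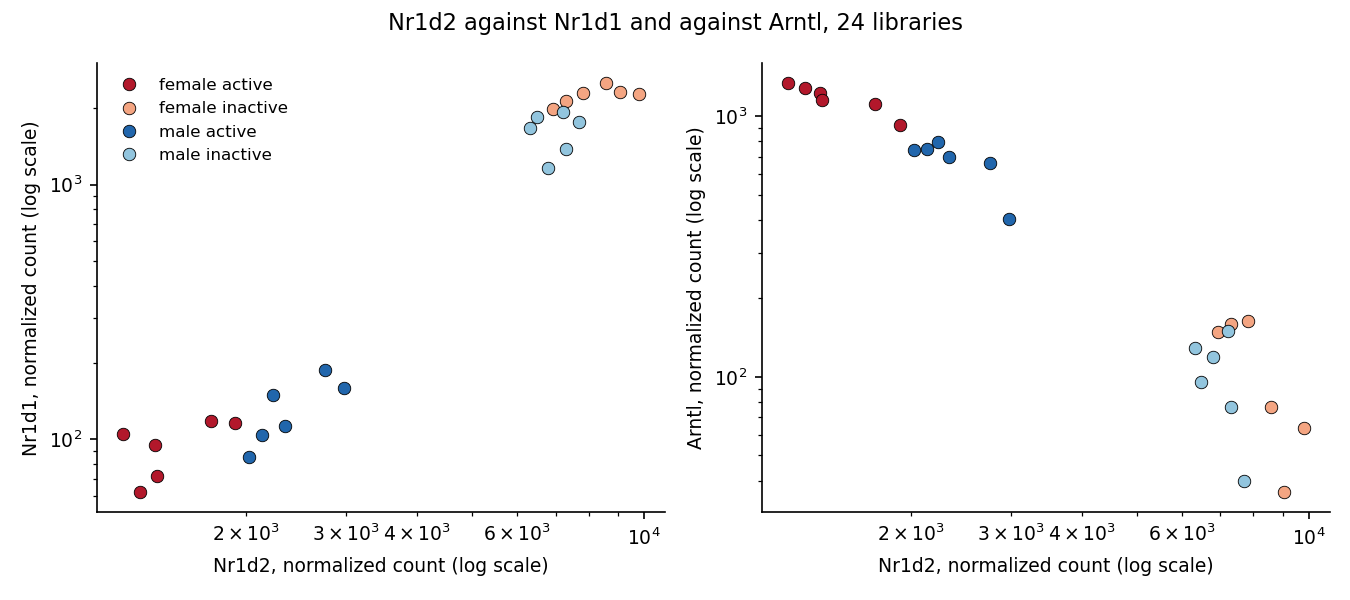
Nr1d1 (left) and Arntl (right) on the vertical axis against Nr1d2 on the horizontal axis in 24 libraries, normalized counts on log axes, coloured by group. Among active females Arntl falls as Nr1d2 rises (Pearson's r -0.95), and active and inactive libraries form separate clouds.

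The core clock genes with response elements for REV-ERB and ROR that were counted here stood opposite to the Rev-erb genes. All 5 of 5 were higher in the active period in females (7.97% of tested genes) and in males (8.43%), each with no overlap between periods, and their median log2 fold was 2.85 in females and 1.75 in males, against -0.0016 and 0.015 over all tested genes. Earlier results of these data were known when the list was written, so its direction is not independent evidence.

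Their log2 folds in females and in males were 3.62 ± 0.34 and 2.796 ± 0.34 for Arntl, 3.17 ± 0.21 and 1.72 ± 0.21 for Npas2, which encodes a partner of BMAL1, and 0.55 ± 0.06 and 0.33 ± 0.06 for Clock. The repressor gene Cry1 had 2.85 ± 0.26 and 2.71 ± 0.26, and Nfil3, whose protein competes at D-boxes, had 2.28 ± 0.21 and 1.75 ± 0.21. The male change was smaller than the female one by a tested difference in Npas2 (-1.45 ± 0.30, adjusted p = 0.00998). For Arntl (-0.82 ± 0.48, adjusted p = 0.368), Clock, Cry1 and Nfil3 the difference did not pass. Active males had lower Arntl than active females, at 405 to 793 normalized counts against 924 to 1336 (log2 difference -0.82 ± 0.34, adjusted p = 0.0399 by limma, and -0.78 with adjusted p = 0.0530 under upper quartile scaling), while Arntl in the inactive period lay at 39.9 to 150 in males and 36.2 to 164 in females.

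Another list held genes reported elsewhere to be repressed by REV-ERB in liver, muscle or macrophages. Of 13 such genes 10 passed the filter on low values, and 2 were higher, 1 lower and 7 not called in active females. In active males 1 was higher, 0 lower and 9 not called, but 1 higher and 3 lower with equal totals and 2 higher with TMM factors. The shares over the whole table were 7.97% higher and 6.98% lower for females, and 8.43% and 6.95% for males. The period counts of the lists that follow stand beside the same shares. The median log2 fold was 0.20 in females and -0.076 in males. G6pc, the glucose-releasing phosphatase, rose in females (1.24 ± 0.17, adjusted p = 3.86e-05) and in males (0.75 ± 0.17, adjusted p = 0.00688). The cell cycle inhibitor Cdkn1a rose in females (0.96 ± 0.17, adjusted p = 1.87e-04) and had 0.48 ± 0.17 in males (adjusted p = 0.0547), and the autophagy kinase Ulk1 fell in females (-0.25 ± 0.06, adjusted p = 0.00831). Elovl3, Il6 and Fgf21 did not pass the filter, with at most 13.9 normalized counts in any library.

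Upstream of the Rev-erb and ROR genes act E-box and D-box factors. The list of 15 includes the 5 core clock genes already counted. Of the other 10, active females had 0 higher, 6 lower and 4 not called, with Hlf not passing under upper quartile scaling (-0.15, adjusted p = 0.0893). Active males had 2 higher, 5 lower and 3 not called, and the 2 higher, named after their values were seen, were Per2 (0.98 ± 0.22, adjusted p = 0.00479) and Cry2 (0.32 ± 0.09, adjusted p = 0.0141). Those that fell with the Rev-erb genes were led by Dbp, a D-box activator that is itself driven by E-boxes, at 52.5 to 92.6 normalized counts in active females against 1497 to 2609 in inactive females. Its fold was -4.91 ± 0.22 in females and -3.59 ± 0.22 in males, and the difference of 1.32 ± 0.31 passed (adjusted p = 0.0242 by limma). Per3, a period gene, fell by 1.70 ± 0.13 in females and 0.88 ± 0.13 in males, and its difference of 0.82 ± 0.19 passed too (adjusted p = 0.0208), as did that of the D-box gene Tef (0.63 ± 0.13, adjusted p = 0.0128). Ciart, a repressor of BMAL1 and CLOCK, fell by 2.64 ± 0.25 in females and 2.37 ± 0.25 in males, with no difference passing between the sexes (0.28 ± 0.35, adjusted p = 0.713).

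**Figure D5:**
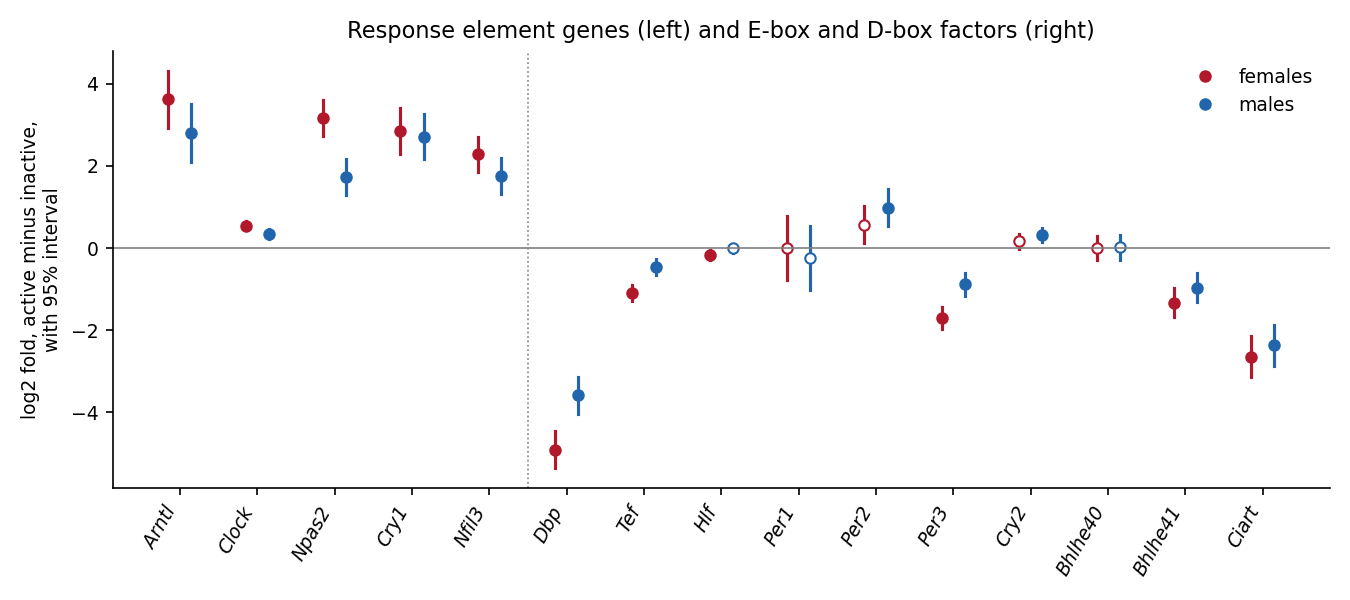
Log2 folds, active minus inactive, with 95% intervals in females and males for the 5 core clock genes with response elements (left of the dotted line) and the other E-box and D-box factors (right), filled where the adjusted p is under 0.05. All 5 genes on the left lie above 0, and Dbp is the lowest at -4.91 in females and -3.59 in males.

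Rorb, which encodes ROR beta, was low in kidney, at 17.8 to 56.5 normalized counts in active females against 17.7 to 39.1 in inactive females and at 13.6 to 35.1 in active males against 6.93 to 26.6 in inactive males. Its period change did not pass in females (0.26 ± 0.32, adjusted p = 0.662) or in males (0.48 ± 0.32, adjusted p = 0.320). Between the sexes Rorb was called lower in inactive males (log2 difference -0.81), but did not pass under upper quartile scaling (-0.73, adjusted p = 0.0543 by limma). In active males it was not called (-0.59), but was called lower with equal totals (-0.85).

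The gene of the thyroid hormone receptor alpha, Thra, runs on the opposite strand and shares 263 exon bases with Nr1d1 in the reference annotation, 8.55% of the exon bases of Nr1d1. The strand setting of the counting is not given, so reads in these bases cannot be told apart between the genes. Thra lay at 969 to 1035 normalized counts in active females against 1221 to 1631 in inactive females, and at 789 to 1027 in active males against 1053 to 1337 in inactive males. It fell by 0.48 ± 0.07 in females (adjusted p = 1.26e-05 by limma) and by 0.41 ± 0.07 in males (adjusted p = 1.84e-04), in the direction of Nr1d1 and by far less. Thrb, the receptor gene related to Thra, did not pass for the period (0.19 ± 0.07, adjusted p = 0.0590 in females, and 0.04 ± 0.07, adjusted p = 0.763 in males). Rora overlaps the antisense model gene Gm15511 by 82 exon bases, and that model averaged 0.352 normalized counts.

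Among the corepressor genes that the REV-ERB proteins rely on, active females had 2 of 5 higher and 2 lower (1 higher with equal totals), beside 7.97% and 6.98% of all tested genes. Active males had 0 higher and 1 lower, beside 8.43% and 6.95%. The median log2 fold was -0.037 in females and 0.016 in males. Ncor1, the main scaffold, rose by 0.30 ± 0.05 in females (adjusted p = 1.88e-05 by limma) and had 0.10 ± 0.05 in males (adjusted p = 0.127). Tbl1xr1, which exchanges corepressors for coactivators, fell by 0.29 ± 0.05 in females and 0.27 ± 0.05 in males (adjusted p = 2.71e-04 and 8.14e-04). The deacetylase gene Hdac3 fell by 0.20 ± 0.06 in females (adjusted p = 0.0220) and had 0.02 ± 0.06 in males (adjusted p = 0.890).

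Of 8 coactivator genes used by the ROR proteins 1 was higher and 1 lower in active females, and 0 higher and 1 lower in active males (2 lower with equal totals). Ppargc1b fell by 0.55 ± 0.13 in females and 0.56 ± 0.13 in males (adjusted p = 0.00427 and 0.00487 by limma). Nrip1, which encodes a corepressor of nuclear receptors despite its place in this list, rose by 0.40 ± 0.08 in females (adjusted p = 6.41e-04) and had 0.16 ± 0.08 in males (adjusted p = 0.170).

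Heme is the ligand of the REV-ERB proteins. Of 8 heme synthesis genes 1 was higher and 2 lower in active females and 0 higher and 1 lower in active males. Between the sexes, 6 of 8 were higher and 0 lower in active males than in active females, and 5 were higher and 1 lower in inactive males, beside 30.1% and 27.9% higher over all genes. With equal totals these counts were 4 higher and 1 lower in active males and 3 higher and 2 lower in inactive males. Alas1, the first and rate-limiting gene, was named after its values were seen, and did not pass for the period (0.52 ± 0.20, adjusted p = 0.0910 in females, and 0.03 ± 0.20, adjusted p = 0.939 in males). Alad fell in females (-0.26 ± 0.07, adjusted p = 0.00876) and had 0.12 ± 0.07 in males, a tested difference of 0.38 ± 0.10 (adjusted p = 0.0288). Ppox fell in females (-0.24 ± 0.05, adjusted p = 0.00219) and Fech, which inserts the iron, fell in males (-0.19 ± 0.04, adjusted p = 0.00343).

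Of 4 heme breakdown genes 1 was higher and 1 lower in active females and 0 were called in active males, while all 4 were higher in males than in females in each period (3 of 4 with equal totals, where Hmox2 did not pass), beside 30.1% of tested genes in the active and 27.9% in the inactive period. Hmox1, the inducible heme oxygenase, rose by 0.97 ± 0.19 in females (adjusted p = 8.49e-04 by limma) and had 0.48 ± 0.19 in males (adjusted p = 0.0850). Blvra, a biliverdin reductase, fell by 0.32 ± 0.06 in females (adjusted p = 5.53e-04) and had 0.01 ± 0.06 in males, a tested difference of 0.33 ± 0.09 (adjusted p = 0.0391, and 0.29 with adjusted p = 0.0711 under upper quartile scaling). Of 7 genes linked to the turnover of REV-ERB proteins 1 was higher in each sex, Gsk3b in females (0.15 ± 0.05, adjusted p = 0.0376, and 0.12 with adjusted p = 0.0962 under equal totals) and Spsb4 in males (0.48 ± 0.09, adjusted p = 8.14e-04).

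Likeness to each gene was measured as Pearson's r of log2(normalized count + 1) over the 24 libraries, among 12551 named genes with a mean of at least 50 normalized counts, as a description in which the 4 groups weigh heavily. Most like Nr1d1 were Dbp (0.99), the translation factor gene Eif4b (0.94), Per3 (0.94), the glucose transporter gene Slc2a2 (0.94) and Ciart (0.94). Among the most opposite to it were the lactate transporter gene Slc16a1 (-0.96), Rhobtb1 (-0.96), the RNA-binding protein gene Tardbp (-0.95) and the nuclear receptor gene Ppard (-0.94).

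Most like Nr1d2 were Dbp (0.98), Per3 (0.96), the translational regulator gene Cpeb3 (0.95), Tef (0.94) and Ciart (0.93), and most opposite were Npas2 (-0.97), Rhobtb1 (-0.97), Ypel2 (-0.97), Slc16a1 (-0.96) and Arntl (-0.96). Slc16a1 rose by 1.74 ± 0.08 in active females and 1.05 ± 0.08 in active males (adjusted p = 1.54e-15 and 5.13e-10 by limma), a difference of -0.69 ± 0.12 between the sexes (adjusted p = 0.00267). Ppard rose by 1.98 ± 0.20 and 1.37 ± 0.20 (adjusted p = 3.79e-07 and 9.60e-05).

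The genes most like Rora were Sypl (0.84), Ube2e1 (0.81), Zfp974 (0.81), the phosphate transporter gene Slc20a2 (0.81) and Slc16a11 (0.81), and the most opposite were the integrin gene Itga5 (-0.83), the endothelial adhesion gene Icam2 (-0.82), Arhgef18 (-0.82), Casc3 (-0.81) and Arhgap23 (-0.81). Sex accounted for 44.9% of the sum of squares of Rora, and the spread within groups for 53.8%.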

How the data were processed

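Kidney poly A RNA of 24 libraries was grouped by the labelled sex and period. The signal in the deposited table is read counts per gene that the authors divided by 1 size factor per library, as the whole-number steps of the values show. The submitters' processing notes list GRCm39 as the build and, as tools, DESeq2 1.28.1, featureCounts, Subread 2.0.6 and Trim Galore 0.6.10, with neither roles, annotation release nor strand setting. The reference annotation is of the older build GRCm38 and gave symbols for 52073 of 56748 identifiers, exon lengths and overlaps.

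Genes with a mean of at least 10 normalized counts (17333) were fitted as log2(normalized count + 1) by limma 3.58.1 (R 4.3.3) over all 24 libraries, using a robust, trended prior and 20 residual degrees of freedom. Log2 folds are ± SE, levels are means ± SD. Low genes are understated on this scale. Recovered whole reads (100% of values whole within 0.05) were fitted with edgeR 4.0.16 and DESeq2 1.42.0, which called 2642 and 2999 genes for the period in females and 2673 and 3021 in males. The fit was checked on simulated data. Ratios and correlations used exact permutation. Up to 3 called genes a list were named by smallest p, besides all core clock, other ROR and thyroid receptor genes, and likeness by the 5 largest and smallest r. Some items are not reported here and were left out of the list counts. The genes and lists were chosen with earlier results of these data known. The labels do not say whether the numbers shared by male and female titles pair the libraries, and the main fit did not use them.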

Additional observations from a re-analysis of the deposited data

Results flagged for a closer look

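Among 44 groups of 6 libraries looked at, 2 held a library far from the rest, a rate that chance alone reaches in about 5% of groups. Arntl was at 405 normalized counts in active male library 29, with the next lowest active male library at 659. Nfil3 was at 276 in inactive female library 36, with the next highest at 182.

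The period change differed between the sexes in 9 of the 48 genes looked at, beside 2.71% of all tested genes. Many of the 48 were named by a small period p or by likeness to the 3 receptor genes in these same libraries. The count of 9 is thus partly built in by that choice. Differences are male minus female on the log2 scale, by the interaction in limma. Positive ones were those of Nr1d1 (0.95), Nr1d2 (0.93), Dbp (1.32), Per3 (0.82), Tef (0.63), Alad (0.38) and Blvra (0.33). Negative ones were those of Npas2 (-1.45) and Slc16a1 (-0.69). Adjusted p-values ran from 0.00267 for Slc16a1 to 0.0391 for Blvra.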

How the results depend on the processing

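The period changes of Nr1d1 and Nr1d2 in each sex kept direction and call under every alternative run. So did the Nr1d2 difference between the male and female period changes, and the period differences of the ratios. The Nr1d1 change in females lay between -4.62 and -4.52, and that in males between -3.66 and -3.59. For Nr1d1 the difference between the period changes did not pass by limma without a filter on low values (0.95, adjusted p = 0.0652). Nor did it pass with a plain variance prior (0.95, adjusted p = 0.0587). With equal totals Rora turned to -0.0056 for the period in females, -0.11 for sex in the active and -0.056 in the inactive period, Nr1d1 for sex in the active period did not pass (0.19), and Nr1d2 in the inactive period passed (-0.52). Rora in active males did not pass without a filter (0.16) or with library weights (0.13). Nr1d1 in inactive males did not pass with the upper quartile (-0.40). With only the 2 groups compared, Nr1d1 in active males did not pass (0.47) and Nr1d2 in inactive males passed (-0.24), as it did with DESeq2 (-0.25). The ratio of Nr1d2 to Rora in active males did not pass with medians (0.45). The cause was not tested. Calls for the difference between the male and female period changes numbered 470, and 247 without a filter, 289 with a plain prior and 937 with DESeq2. Calls for the period in males numbered 2665, and 1756 with only the 2 groups compared.

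With 1 library left out the Nr1d1 difference between the male and female period changes ranged from 0.84 to 1.07. Nr1d1 ranged from 0.35 to 0.58 in active and from -0.54 to -0.39 in inactive males against females. Nr1d2 in inactive males against females ranged from -0.29 to -0.18, and Rora in active males against females from 0.13 to 0.20. The period change of Rora in females ranged from -0.017 to 0.059. The ratio of Nr1d1 to Nr1d2 in inactive males against females ranged from -0.31 to -0.16. Calls for the difference between the period changes numbered 276 to 779.

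With the shared number as a replicate block, 531 genes were called for the difference between the male and female period changes. No call of the 3 genes changed. Same-numbered deviations correlated at -0.10 to 0.12, over 0.1 in 1 of 12 pairs. Of 24 libraries 9 correlated best with their own number, among the 6 of the other sex in that period. These values do not settle whether the numbers pair the libraries. Over 6 pairs the exact ratio tests did not pass for Nr1d1 to Rora (-0.71) in the inactive period or Nr1d2 to Rora in the active (0.54) and inactive period (-0.46). Their smallest possible exact p is 0.03125, which both inactive tests had (adjusted p = 0.0938), so those say nothing about stability. Depth limits Rorb, at a mean of 16.2 to 35.3 normalized counts per group.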

Other observations

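Nr1d1 and Thra, which overlap on opposite strands, varied together among male libraries. Pearson's r was 0.84 in active males and 0.81 in inactive males (exact permutation p = 0.0375 and 0.0486, adjusted p = 0.0972 each over 4 correlations, n = 6), and -0.098 and 0.32 in active and inactive females (exact permutation p = 0.853 and 0.550). Spearman's rho was 0.89 in both male groups (exact permutation p = 0.0333 each). None of the 4 passes after adjustment, and the comparison was chosen after seeing the data. Without the 2 libraries farthest from the median of Nr1d1, r was 0.71 in each male group.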
